A study of Mus musculus with 6 samples.

Results

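Ovol1 and Ovol2 are the transcription factors whose genes were targeted in this series, and they were each read by 1 probe set. These 2 probe sets, of 35556 in the deposited table, were taken because the platform annotation gives them the symbol Ovol1 (Entrez gene 18426) or Ovol2 (Entrez gene 107586) alone. RNA from cultured mouse keratinocytes, the cells that build the epidermis, was hybridised to 6 Affymetrix arrays, 2 in each of 3 groups. The cells came from skin of C57BL/6 embryos at E18.5, all labelled female, and grew for 2 to 5 days without added calcium, the signal that makes cultured keratinocytes differentiate. Each array held RNA from 2 mice. Littermates shared cages, but the labels do not say which arrays, if any, share a litter.

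The control mice were either Ovol2flox/+; Ovol1+/- or Ovol2flox/+;K14-Cre. A control array could thus hold RNA from animals with a single working copy of Ovol1 or, where K14-Cre acts, of Ovol2. The labels do not say which of these genotypes went into which array. The second group, labelled Ovol1 KO, was Ovol1-/-. The third group, Ovol1/2 DKO, was also Ovol1-/- and carried Ovol2flox/- with K14-Cre, a recombinase driven by the promoter of keratin 14, so Ovol2 was to be lost in cells that express that keratin. How the 2 probe sets are placed against the deleted stretches is not known here, so their signal need not report a deletion.

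Ovol proteins are C2H2 zinc finger factors related to Drosophila ovo that mostly act as repressors. In skin, Ovol1 is known from keratinocytes leaving the basal layer, where it helps to end proliferation, and Ovol2 from epithelial progenitors, where it holds the epithelial state by repressing genes of the epithelial to mesenchymal transition (EMT), Zeb1 among them. Ovol1 has also been described as a repressor of Ovol2, so the level of Ovol2 without Ovol1 is of interest. Ovol3 is the remaining mouse relative.

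Of the 2 members, Ovol2 matched the RefSeq promoter table (assembly GRCm38.p6). Its 250 bases before the listed start (chr2:144331363-144331612, minus strand) are shown since Ovol proteins are known to bind a CCGTTA core and to act on promoters of their own family, and capitals mark a match to the shorter core CCGTT, which was chosen after the window had been read.
Ovol2: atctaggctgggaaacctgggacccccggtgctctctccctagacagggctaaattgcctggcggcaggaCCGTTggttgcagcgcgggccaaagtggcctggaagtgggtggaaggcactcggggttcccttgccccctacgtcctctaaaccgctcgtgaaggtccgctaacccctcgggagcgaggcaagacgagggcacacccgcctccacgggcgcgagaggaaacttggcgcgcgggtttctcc
Both strands were searched. CCGTTA itself, whose first letters are the shorter core, had no match in the window, and 2.18% of 32851 mouse promoter windows of the same length hold it. The shorter core CCGTT is found in 14.5% of them. CAGGTG, an E-box form bound by Zeb and Snail factors, and AACCGGTT, bound by Grhl factors, also had no match here, and 17.2% and 0.116% of all windows hold them. The Ovol2 window was 65.2% G and C, against a median of 52.4% over all windows. Such matches describe the letters of this window and do not show binding.

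Before the targeted genes are read, 2 arrays stand apart from their labels. Xist, which is transcribed from the inactive X, was at 4.43 in the first control array and 4.54 in the first array with the Ovol1 KO label, on the log2(intensity + 16) scale used throughout, and between 10.99 and 11.43 in the other 4 arrays. The Y-linked gene Eif2s3y was at 13.80 in that same labelled array and at most 5.14 elsewhere. Results are therefore also given without these 2 arrays. Array medians of intensity lay between 103.3 and 109.8, and the number of arrays limits the precision. The median standard error (SE) of a log2 difference in the limma fit over 19938 genes was 0.24. A level at or under 6.20, the highest array median of the probe sets without a gene symbol, is called near background.

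Ovol1 was present in the control arrays and in those labelled Ovol1 KO, and at or just above the near-background level in Ovol1/2 DKO. Its intensity was 780 and 975 in the control arrays, 1708 and 874 under the Ovol1 KO label, and 46.3 and 58.7 in the Ovol1/2 DKO arrays. On the log2 scale these are 9.64 and 9.95, then 10.75 and 9.80, then 5.96 and 6.22. The 2 Ovol1/2 DKO arrays lay far below all others, replicate 1 labelled Ovol1 KO was the highest array of the series, and the remaining 3 arrays lay close together.

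Set against control, Ovol1 fell in Ovol1/2 DKO from a mean of 9.79 ± 0.22 (SD, n = 2) to 6.09 ± 0.19 (SD, n = 2), a log2 difference of -3.70 (SE 0.34, 95% interval -4.51 to -2.90, limma adjusted p = 0.00755) or 13.0-fold lower. In this comparison 1.4% of the 19938 genes passed as lower at an adjusted p under 0.05, and in 39.2% the arrays of the groups did not overlap. Against the arrays labelled Ovol1 KO, with which the same Ovol1/2 DKO arrays were compared, Ovol1 fell by 4.18 on the log2 scale (SE 0.34, limma adjusted p = 0.00477), or 18.2-fold, where 3.15% of genes passed in either direction and 1.91% as lower. Since the lower group sits near background, the size depends on the number added before the logarithm: against control it was -4.04 with an offset of 1 and -3.01 with an offset of 64. The Ovol1/2 DKO difference from control was -3.86 without the 2 arrays that lacked Xist signal, which leaves a lone control array and so no spread between controls.

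The loss of Ovol1 that the second group's label states was not seen in its Ovol1 signal. The arrays labelled Ovol1 KO had an Ovol1 mean of 10.27 ± 0.67 (SD, n = 2), and the log2 difference from control was 0.48 (SE 0.34, 95% interval -0.33 to 1.29, limma adjusted p = 0.999). No gene passed the limma test between these groups, which is 0% of 19938, and 153 (0.767%) had an unadjusted p under 0.05. Without any difference a fraction of about 0.05 would be under 0.05. The test was thus strict here, and these counts do not show that the groups were alike. The arrays of these groups did not overlap in 19.1% of genes, Ovol1 and Ovol2 not among them. The gap of 0.95 between the 2 arrays of the labelled group was as large in 7.05% of genes, against a median gap of 0.33. Without replicate 1 labelled Ovol1 KO the Ovol1 difference was 0.00 and without replicate 2 it was 0.96, and it was -0.15 without the 2 arrays that lacked Xist signal, none of them passing. At its lower bound the interval allows a fall of 0.33 on the log2 scale, so a fall of the size seen in Ovol1/2 DKO lies outside it. Any direction below that involves these arrays is therefore that of the label, which this probe set did not bear out. The Ovol1/2 DKO arrays are also given as Ovol1-/-, yet the same probe set read 46.3 and 58.7 there, against 1708 and 874 here. Why these groups differ was not tested, and how the probe set is placed against the deleted stretch is not known here.

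**Figure D1:**
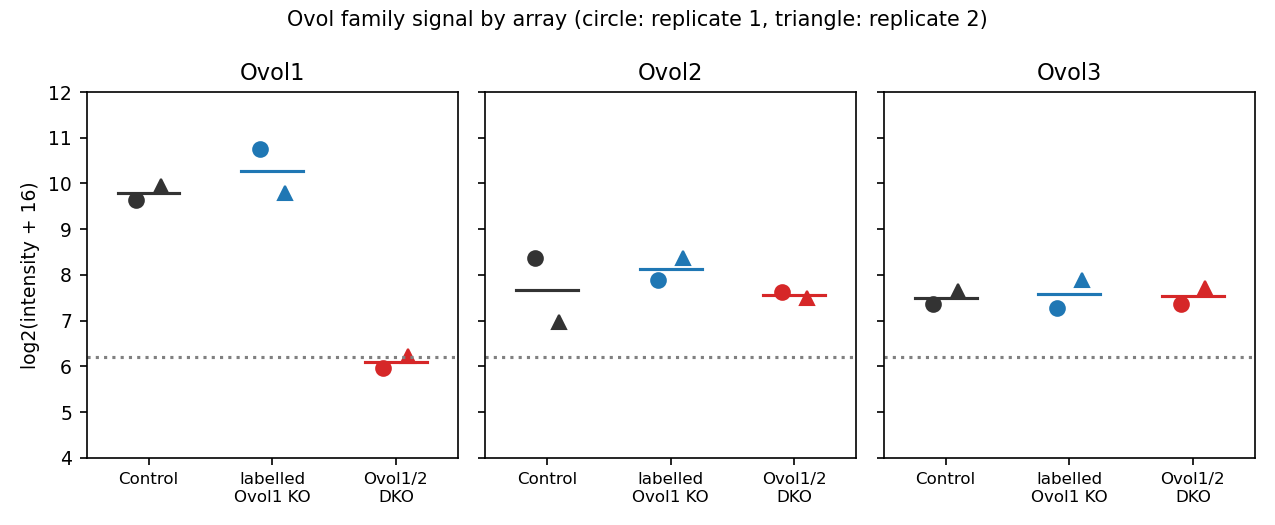
Signal of Ovol1, Ovol2 and Ovol3 as log2(intensity + 16) in each array, by group; circles are replicate 1, triangles replicate 2, short bars group means of 2 arrays, and the dotted line is the near-background level of 6.20. Ovol1 sits at 5.96 and 6.22 in Ovol1/2 DKO and at 9.64 or above in the other 4 arrays, while the Ovol2 values of the 3 groups overlap apart from Ovol1/2 DKO against labelled Ovol1 KO; levels are not comparable between genes.

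Ovol2 did not follow Ovol1. Its intensity was 314 and 109 in the control arrays, 220 and 317 under the Ovol1 KO label, and 182 and 165 in the Ovol1/2 DKO arrays. On the log2 scale these are 8.37 and 6.97, then 7.88 and 8.38, then 7.63 and 7.50. The lowest and nearly the highest array of the series were both controls, and the Ovol1/2 DKO arrays lay between them. All 6 arrays were above the near-background level, but the lowest, at an intensity of 109, was within the range of array medians, 103.3 to 109.8. Whether so dim a signal is specific to Ovol2 was not tested.

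The group means of Ovol2 were 7.67 ± 0.99 in control, 8.13 ± 0.35 under the Ovol1 KO label and 7.56 ± 0.10 in Ovol1/2 DKO (SD, n = 2 each), in the order labelled Ovol1 KO, control, Ovol1/2 DKO from high to low. Each neighbour in this order overlapped the next by its arrays. The Ovol1/2 DKO difference from control was -0.10 (SE 0.45, 95% interval -1.17 to 0.96, limma adjusted p = 0.99999). The interval covers a clear fall as well as a clear rise, so the test does not show that Ovol2 was at the same level. The sign hangs on the control array used: the difference was 0.60 without control replicate 1, also with both arrays lacking Xist signal left out, and -0.80 without control replicate 2, neither passing. The gap of 1.40 between the control arrays was matched or exceeded in 1.68% of genes, where the median gap was 0.28.

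Against the arrays labelled Ovol1 KO, Ovol2 was 0.57 lower in Ovol1/2 DKO (log2 difference -0.57, SE 0.45, limma adjusted p = 0.665), with both Ovol1/2 DKO arrays under both others. The arrays of these groups did not overlap in 43.1% of all genes, and the difference did not pass under any setting tried. For labelled Ovol1 KO minus control, Ovol2 differed by 0.46 (SE 0.45, 95% interval -0.60 to 1.53, limma adjusted p = 0.999), -0.24 without control replicate 2, 1.16 without control replicate 1 and 1.41 without the 2 arrays that lacked Xist signal, none of them passing. The loss of Ovol2 named in the Ovol1/2 DKO label was therefore not visible in the signal of this probe set. In RNA from whole cultures, a loss in part of the cells and a lower level in every cell cannot be told apart.

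Ovol3 read 7.36 and 7.64 in control, 7.28 and 7.89 under the Ovol1 KO label, and 7.37 and 7.72 in Ovol1/2 DKO. These values overlap, and the Ovol1/2 DKO difference from control was 0.05 (SE 0.28, limma adjusted p = 0.99999).

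Within an array, the log2 value of Ovol1 minus that of Ovol2 compares the response of the 2 genes while a shift of the whole array drops out. It was 1.27 and 2.99 in control, 2.87 and 1.42 under the Ovol1 KO label, and -1.67 and -1.27 in Ovol1/2 DKO. Both Ovol1/2 DKO arrays lay below the other 4, and since Ovol1 is at or just above the near-background level there, no size is given for this difference. With 2 arrays against 2, an exact permutation test cannot give a two-sided p below 0.333, so this ratio was not tested.

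**Figure D2:**
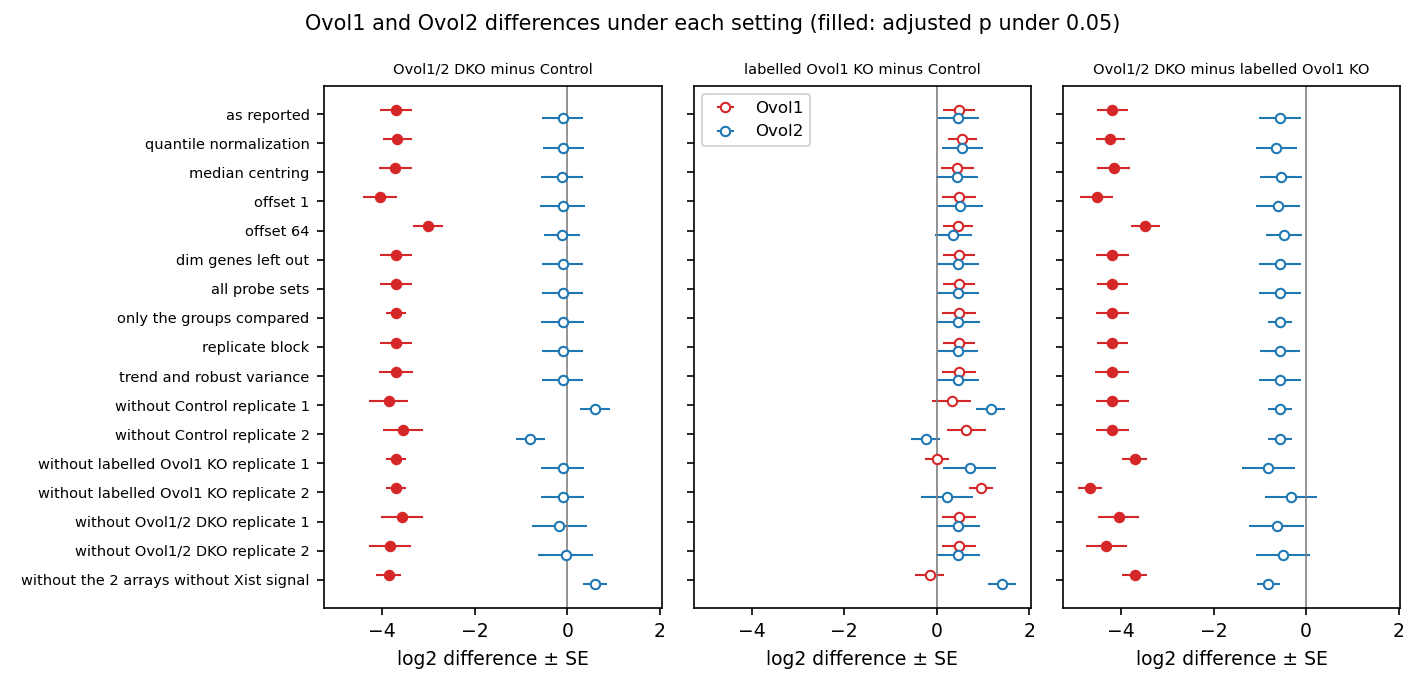
Log2 differences (horizontal axis, ± SE) of Ovol1 in red and Ovol2 in blue in the 3 comparisons, as reported and under 16 other settings of the analysis, 1 per row; filled points had a limma adjusted p under 0.05. Ovol1 stays between -4.04 and -3.01 in Ovol1/2 DKO minus control and is filled in all rows, while Ovol2 lies at 0.60 there without control replicate 1 and at -0.80 without control replicate 2.

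Since K14-Cre was to delete Ovol2, the keratin 14 gene was read in the same arrays. Krt14 was at 13.34 and 13.25 in control, 13.21 and 13.28 under the Ovol1 KO label, and 13.39 and 13.35 in Ovol1/2 DKO. Its Ovol1/2 DKO difference from control was 0.07 (SE 0.19, limma adjusted p = 0.99999), with a 95% interval of -0.37 to 0.52, and the 6 arrays lay close together at a high signal. The expression of the Cre itself was not measured here.

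The genes next to Ovol1 and Ovol2 were read as well, taking the 10 measured genes on either side of each in the order of the RefSeq gene table. Around Ovol2, none of 20 genes passed in Ovol1/2 DKO against control (2.02% of all genes passed in either direction), and their differences ran from -0.37 to 0.58 with a median of 0.06, against 0.03 over all genes. Around Ovol1, 1 of 20 passed, with a median of 0.05. That gene was Ap5b1, a subunit of the AP-5 vesicle adaptor complex, which lies next to Ovol1 and whose interval overlaps that of Ovol1 in the gene table.

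Ap5b1 read 7.88 and 7.66 in control, 7.80 and 8.04 under the Ovol1 KO label, and 6.61 and 6.61 in Ovol1/2 DKO, so both Ovol1/2 DKO arrays were lower than all others. It fell by 1.16 on the log2 scale against control (SE 0.20, limma adjusted p = 0.0460). The call is close to the threshold: it passed in 5 of 16 other settings and was lost when any of the 6 arrays was left out, with an adjusted p of 0.311 without Ovol1/2 DKO replicate 2. Whether probes of either gene read RNA of the other was not tested.

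On the other side, Snx32, a sorting nexin, was 1.43 higher in Ovol1/2 DKO than in control (SE 0.28, limma adjusted p = 0.0681) and passed against the arrays labelled Ovol1 KO (log2 difference 1.52, SE 0.28, limma adjusted p = 0.0425). It read 7.38 and 8.13 in Ovol1/2 DKO and between 6.20 and 6.44 in the other 4 arrays, so the lower side was close to background. The call against the labelled Ovol1 KO arrays passed in 11 of 16 other settings, and was lost without either Ovol1/2 DKO array or either array labelled Ovol1 KO. The highest neighbour by difference, Ctsw (2.44, SE 0.53), did not pass (limma adjusted p = 0.0930), and it was picked for mention after its values had been seen.

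**Figure D3:**
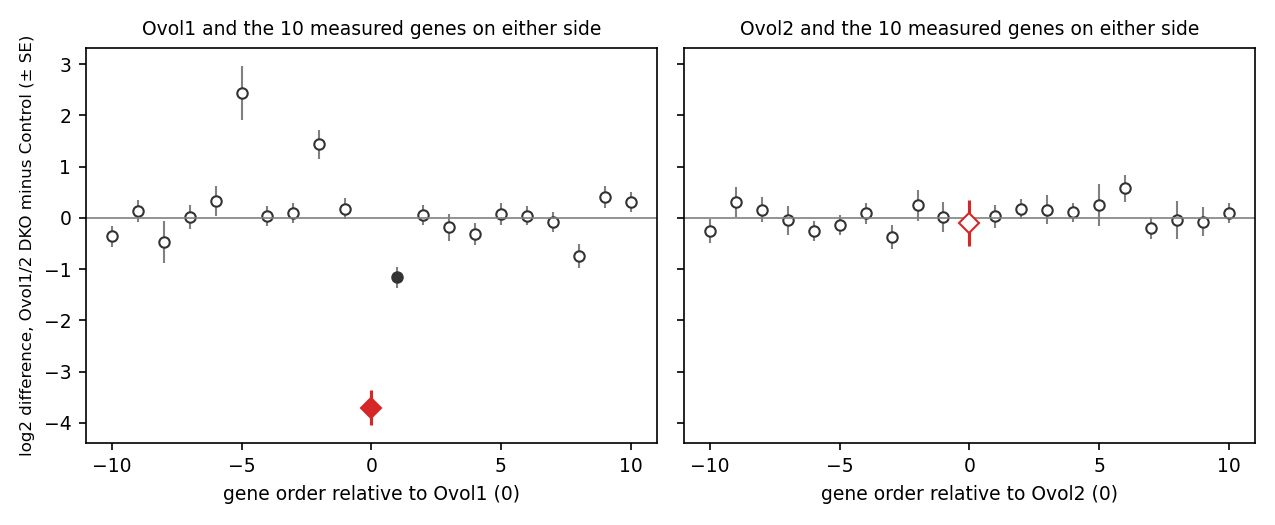
Log2 difference of Ovol1/2 DKO minus control (± SE) for the 10 measured genes on either side of Ovol1 (left) and Ovol2 (right), in gene order; red diamonds are Ovol1 and Ovol2, and filled symbols had a limma adjusted p under 0.05. Next to Ovol1 at -3.70, its neighbour Ap5b1 lies at -1.16, and no gene around Ovol2 is filled.

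The genes whose pattern over the 6 arrays was most like that of Ovol1 were found by Pearson's r among the 758 genes whose range reached at least a fraction of 0.5 of that of Ovol1. The closest were Arhgap40 (r = 0.998), the ankyrin repeat gene Ankrd22 (r = 0.997), Sult2b1, which makes cholesterol sulfate in the epidermis (r = 0.997), the zinc finger factor Casz1 (r = 0.996) and the membrane protein gene Tmem184a (r = 0.996). All arrays enter these values, so the separation of Ovol1/2 DKO from the other 4 arrays weighs most in them, and 291 of the 758 genes had an r of at least 0.9.

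Casz1 read 8.94 and 9.29 in control, 10.19 and 9.19 under the Ovol1 KO label, and 6.27 and 6.58 in Ovol1/2 DKO. Sult2b1 read 10.97 and 11.46, then 12.13 and 11.34, then 6.84 and 7.62 in the same order. In each of the 5 genes, as in Ovol1, the highest array was replicate 1 labelled Ovol1 KO and the 2 lowest were Ovol1/2 DKO. Choosing genes by r with Ovol1 favours such shared extremes, so they are no separate evidence. The most opposite patterns were those of Tarm1 (r = -0.997), the chromodomain gene Cdyl2 (r = -0.995), the ligand gene Tgfb3 (r = -0.992), Ptprn (r = -0.990) and the galactosyltransferase gene B4galt5 (r = -0.989). Replicate 1 labelled Ovol1 KO was the lowest array in each of these 5, which the choice by r again favours.

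**Figure D4:**
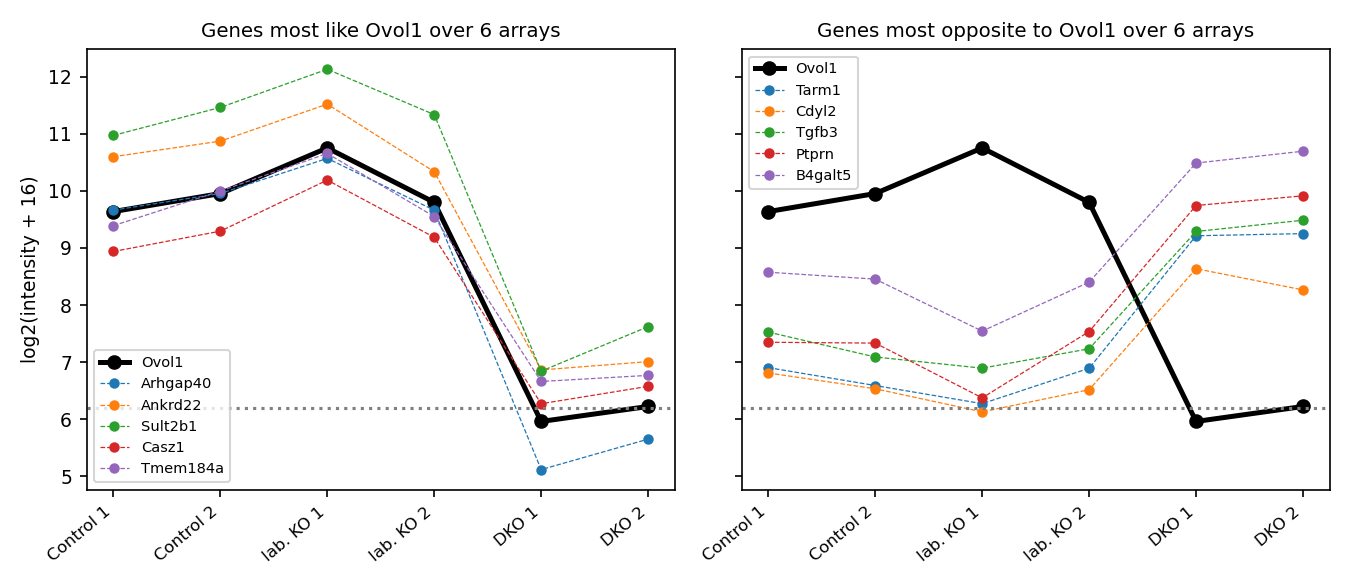
Level as log2(intensity + 16) in each of the 6 arrays for Ovol1 (black) with the 5 genes most like it (left) and the 5 most opposite (right); lines only join the arrays of a gene, and the dotted line is the near-background level. The like genes share the drop in both Ovol1/2 DKO arrays and the high value in replicate 1 labelled Ovol1 KO, and the opposite genes mirror both. The choice of genes by r favours these features.

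For Ovol2, whose range was only 1.41 on the log2 scale, 9171 genes met the same rule on range, and 8 of them had an r of at least 0.9. The nearest was the probe set of Mir184 (r = 0.963), followed by AY761185 (r = 0.942), the olfactory receptor gene Olfr874 (r = 0.940), Hrc (r = 0.934) and the vomeronasal receptor gene Vmn1r26 (r = 0.914). Mir184 stayed between 4.94 and 5.65 and Olfr874 between 5.06 and 6.01, near background in all arrays. The choice by r favours genes with the same or the opposite extremes as Ovol2. Control replicate 2 was the lowest array in 4 of these 5, all but Vmn1r26, as it was for Ovol2. It was the highest in all of the 5 most opposite genes, among them Zfp879 (r = -0.955) and Lims2 (r = -0.893), a focal adhesion gene at 10.12 in control replicate 2 and at most 8.49 in the other arrays.

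From a list chosen, like those below, with earlier results of these data known, genes reported earlier as repressed by Ovol factors were then read. Of 6 such genes, 1 rose in Ovol1/2 DKO against control, none fell and 5 did not pass (0.622% of all genes passed as higher), with a median of 0.93 against 0.03 over all genes. The riser was Zeb1, a repressor of epithelial genes. Its intensity was 50.7 and 54.1 in control, 42.9 and 62.0 under the Ovol1 KO label, and 2113 and 2078 in Ovol1/2 DKO, the arrays with the lowest Ovol1. The Zeb1 difference was 4.95 (SE 0.21, limma adjusted p = 0.00257) from a control level near background, and it passed in all 16 other settings.

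The cell cycle regulator Myc and the receptor Notch1 differed by -0.05 (SE 0.38) and 0.18 (SE 0.26) from control in Ovol1/2 DKO. Vim, which encodes the mesenchymal filament vimentin, was 2.70 higher (SE 0.54, limma adjusted p = 0.0730), and Cdh2, the gene of N-cadherin, was 1.68 higher (SE 0.64, limma adjusted p = 0.394). Both Ovol1/2 DKO arrays lay above both control arrays for Vim and for Cdh2, where 39.2% of all genes did not overlap in either direction. With the replicate number as a block, under which 597 genes passed instead of 403, Cdh2 passed (limma adjusted p = 0.0494). Id2, an inhibitor of basic helix-loop-helix factors, was 1.40 lower (SE 0.34, limma adjusted p = 0.135). It read 7.41 and 7.60 in Ovol1/2 DKO against 8.40 and 9.41 in control and 9.57 and 9.31 under the Ovol1 KO label, so its Ovol1/2 DKO arrays were the lowest. Against the arrays labelled Ovol1 KO, 2 of the 6 rose, Zeb1 and Vim (4.12, SE 0.54, limma adjusted p = 0.0146), and 1 fell, Id2 (-1.93, SE 0.34, limma adjusted p = 0.0368). In that comparison 1.24% and 1.91% of all genes passed as higher and lower, and Vim and Id2 were singled out after their values had been seen. Both calls were lost without replicate 1 labelled Ovol1 KO and without either Ovol1/2 DKO array, and that of Id2 also without replicate 2 labelled Ovol1 KO.

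Of the 6 EMT transcription factors, Zeb1 and Zeb2 rose in Ovol1/2 DKO against control and the other 4 did not pass, where 0.622% of all genes passed as higher. The median of the 6 was 0.38, against 0.03 over all genes. Zeb2, a relative of Zeb1, read 5.70 and 6.23 in control, 5.53 and 5.91 under the Ovol1 KO label, and 7.94 and 8.36 in Ovol1/2 DKO. Its difference of 2.19 (SE 0.28, limma adjusted p = 0.0183) started near background, and the call was lost without either Ovol1/2 DKO array, at an adjusted p of 0.0623 and 0.125. Snai1, Snai2, Twist1 and Twist2 differed by 0.14 to 0.43, all less than 2 of their standard errors.

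Regulators placed upstream of Ovol genes were read next. Of 9 such genes, among them the Wnt pathway genes Lef1 and Ctnnb1, the ligand gene Bmp4 and the factor gene Grhl2, 1 fell in Ovol1/2 DKO against control and 8 did not pass, where 1.4% of all genes passed as lower. Their median was 0.20, against 0.03 over all genes. The gene that fell was Ahr, the aryl hydrocarbon receptor, a ligand-activated factor known to induce OVOL1 in human keratinocytes. Ahr read 9.14 and 9.20 in control, 9.31 and 9.23 under the Ovol1 KO label, and 7.69 and 7.47 in Ovol1/2 DKO, with little spread within groups. The difference was -1.59 (SE 0.19, limma adjusted p = 0.0159), and it did not pass without control replicate 2 or either Ovol1/2 DKO array (adjusted p from 0.0812 to 0.137).

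Epithelial transcription and splicing factors held the most changes of these lists. Of 11 measured, 5 fell in Ovol1/2 DKO against control, none rose and 6 did not pass, where 1.4% of all genes passed as lower. Their median was -1.22, against 0.03 over all genes. With the replicate block, a sixth gene passed, the splicing factor gene Esrp1 (-1.16, limma adjusted p = 0.0311 with the block and 0.0789 without). The ETS factor Elf3 fell by 4.14 on the log2 scale (SE 0.38, limma adjusted p = 0.00755) and the barrier gene regulator Grhl3 by 3.68 (SE 0.37, limma adjusted p = 0.00903), and each passed in all 16 other settings. The ETS factor Ehf fell by 5.09 (SE 0.69, limma adjusted p = 0.0214), to 4.53 and 6.85 in the Ovol1/2 DKO arrays. Grhl1, a relative of Grhl3, reached 5.80 and 6.46 there, a log2 difference of -3.65 (SE 0.56, limma adjusted p = 0.0300). The fifth, the splicing factor Esrp2, fell by 1.22 (SE 0.21, limma adjusted p = 0.0407) and is named outside the naming rule.

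Single arrays decided some of these calls. Ehf did not pass without control replicate 2 (adjusted p = 0.0859), nor did Grhl1 without that array or either Ovol1/2 DKO array (adjusted p from 0.110 to 0.145). Esrp2 lost the call when any of the 6 arrays was left out, with an adjusted p up to 0.335. Grhl1, like Ovol1, was highest in replicate 1 labelled Ovol1 KO, at 11.32 against 9.55 to 10.00 in the other 3 arrays outside Ovol1/2 DKO. Trp63, the master factor of basal keratinocytes, was 0.93 higher in Ovol1/2 DKO than in control without passing (SE 0.21, limma adjusted p = 0.102).

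None of 5 genes of repressor complexes passed in Ovol1/2 DKO against control, where 2.02% of all genes did, and the median of the 5 was 0.11. Those with the smallest p were Rcor1 (-0.33, SE 0.23) and the histone deacetylase gene Hdac3 (0.31, SE 0.25). In the arrays labelled Ovol1 KO against control, none of the 19938 genes passed, and so no gene of any of these lists. The list medians there lay between -0.37 and 0.14, with 0.46 for the 3 Ovol genes.

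**Figure D5:**
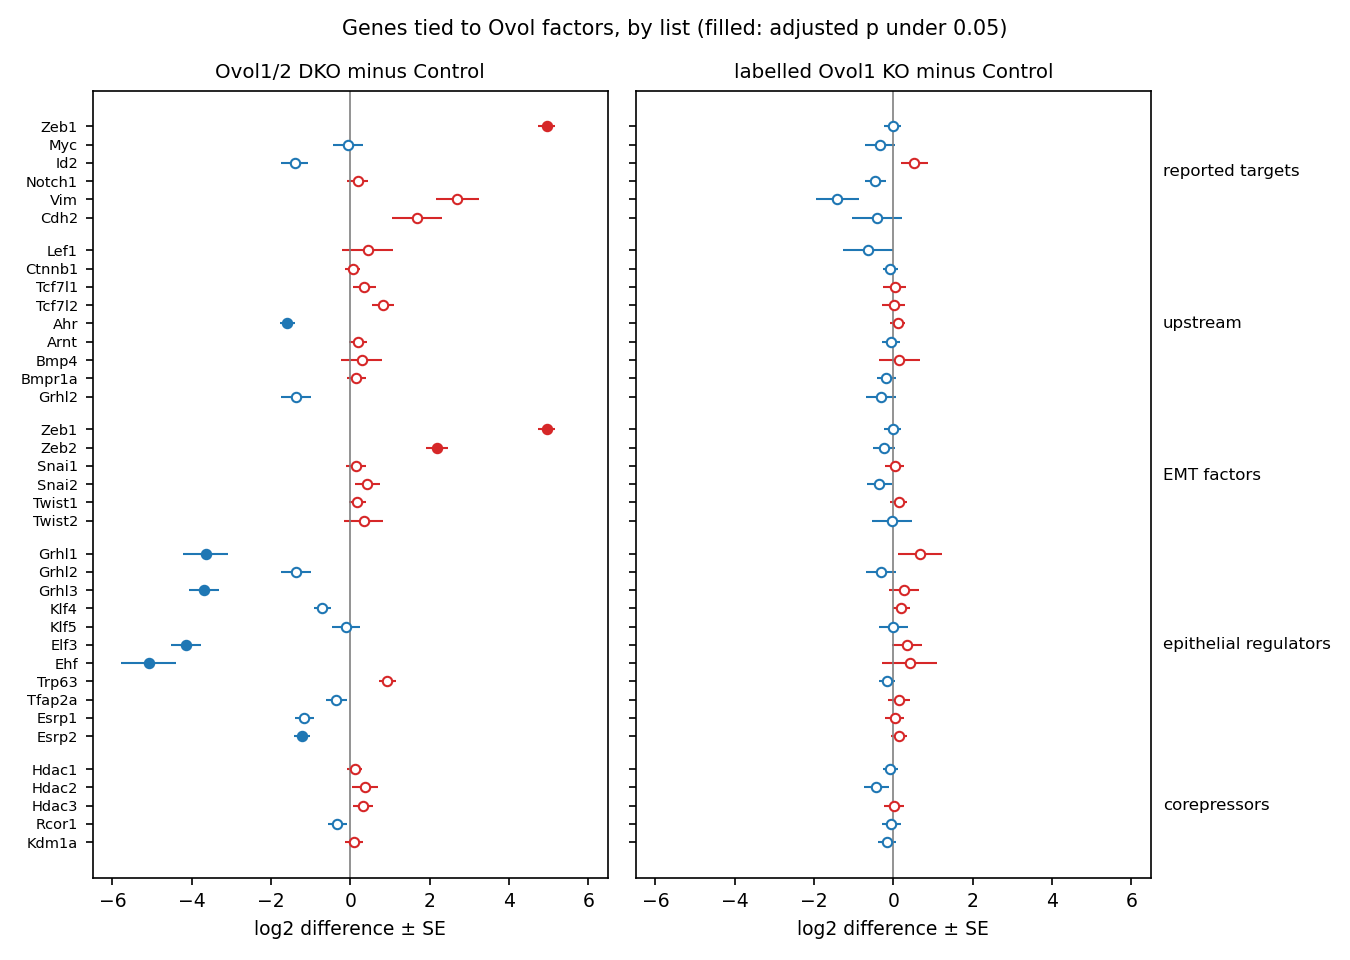
Log2 differences (± SE) from control of Ovol1/2 DKO (left) and of the arrays labelled Ovol1 KO (right) for 5 lists of genes tied to Ovol factors, red above 0 and blue below; filled points had a limma adjusted p under 0.05. On the left Zeb1 at 4.95 is the furthest rise and Ehf at -5.09 the furthest fall, and no point on the right is filled.

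The cultures carried keratinocyte markers in all arrays. The mean level of 9 keratinocyte markers was 10.80 and 10.69 in control, 10.68 and 10.70 under the Ovol1 KO label, and 11.02 and 11.19 in Ovol1/2 DKO, and none of the 9 passed against control. By their Ovol1/2 DKO arrays, 6 of the 9 lay above control and 2 below, where 39.2% of all genes did not overlap in either direction. The largest difference was that of Krt15 (1.74, SE 0.50, limma adjusted p = 0.215). Those below were the differentiation keratins Krt1 (-0.28, SE 0.19) and Krt10 (-0.23, SE 0.20). Of 9 measured fibroblast markers, 1 passed against control, where 2.02% of all genes did, Thy1 (1.67, SE 0.22, limma adjusted p = 0.0187), lost without control replicate 2 or either Ovol1/2 DKO array. The mean level of the 9 was 6.86 and 7.65 in control, 6.99 and 7.64 under the Ovol1 KO label, and 7.32 and 7.67 in Ovol1/2 DKO, so the groups overlapped, while Lum was near background in all 6 arrays, at 4.81 to 5.36. None of 7 melanocyte markers passed in any comparison, but their mean level was 7.17 and 7.19 in control, above the other 4 arrays, which had 6.99 and 6.33 under the Ovol1 KO label and 6.76 and 6.23 in Ovol1/2 DKO. In both Ovol1/2 DKO arrays 3 of the 7 were below control, Tyrp1 (-1.74), Dct (-1.46) and Pmel (-1.11), where 39.2% of all genes did not overlap. Tyr (-0.37), Mlana (-0.11), Sox10 (-0.01) and Kit (0.01) overlapped control. In both arrays labelled Ovol1 KO 4 of the 7 were below control, those 3 among them, where 19.1% of all genes did not overlap. None of 5 endothelial, 5 leukocyte or 5 skeletal muscle markers passed in Ovol1/2 DKO against control, with mean levels per array of 6.15 to 6.56, 5.75 to 6.13 and 6.44 to 6.90. Against labelled Ovol1 KO, where 1.24% of all genes passed as higher, 1 of the 5 endothelial genes passed, Pecam1 (1.28, SE 0.19, limma adjusted p = 0.0204). The other endothelial genes differed by -0.08 to 0.05 there. Against control, Kdr was lower in Ovol1/2 DKO without passing (-1.15, SE 0.22, limma adjusted p = 0.0598). The part of other cells in the Ovol1 and Ovol2 signal was not tested.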

How the data were processed

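The deposited values, probe set intensity on a linear scale, come from PLIER 2.0 (which combines probes into probe sets) and Affymetrix Expression Console 1.1.1, per the submitters' processing notes. For background treatment, scaling and genome build, the step is not given in the sources used. A whole-transcriptome kit prepared the RNA, per the labels' protocols. Replicates are called biological there, without saying whether arrays shared a litter, so p-values measure the spread between these arrays.

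The platform annotation gave 1 symbol to 21789 probe sets, several to 1621 and none to 12146; symbols were updated by Entrez identifier (91 unmatched), and several-symbol probe sets stayed unnamed. For 999 genes with several probe sets the brightest was kept, leaving 19938 genes. log2(intensity + 16), which understates changes of dim genes, was fitted over all 6 arrays with limma 3.58.1 in R 4.3.3 (lmFit, eBayes; 3 residual and 3.68 prior degrees of freedom), and each comparison's p-values were adjusted by Benjamini-Hochberg; those under 0.05 passed. The fit was tested on simulated data.

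The members and gene lists were chosen with earlier results of these data known. Named were Ovol genes, Krt14, passing neighbours, the 5 most and least alike genes, and per list up to 4 passing genes in Ovol1/2 DKO against control, or 2 by smallest p. Alternatives were offsets of 1 and 64, centring on medians, quantile normalization, leaving out genes under the 25th percentile of means, all probe sets, only the groups compared, a replicate block, trended robust variance and leaving out each array. Leaving out the 2 arrays without Xist signal was added after seeing the data.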

Additional observations from a re-analysis of the deposited data

How the results depend on the processing

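The fall of Ovol1 in Ovol1/2 DKO passed in all 16 alternatives, from -4.04 to -3.01 against control and from -4.66 to -3.47 against the arrays labelled Ovol1 KO, and Ovol2 passed in none. Leaving out single arrays moved Ovol2 from -0.80 to 0.60 in Ovol1/2 DKO minus control and from -0.24 to 1.16 in labelled Ovol1 KO minus control. Without the 2 arrays that lacked Xist signal, Ovol2 was 0.60 in Ovol1/2 DKO minus control and Ovol1 was -0.15 in labelled Ovol1 KO minus control. The cause was not tested.

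Counts of passing genes moved more. For Ovol1/2 DKO against control, 403 became 155 with an offset of 64, 99 to 455 with single arrays left out and 1395 with both Xist-lacking arrays left out. For Ovol1/2 DKO against labelled Ovol1 KO, 628 became 311, 135 to 831 and 1508. For labelled Ovol1 KO against control, 0 became 0 to 3 with single arrays left out and 20 without both. A lone array in a group was assumed to vary like the other groups.

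Same-numbered arrays deviated together from their group means (r over genes of 0.261, 0.490 and 0.194 for the 3 pairs of groups), but with 2 numbers and no label of a shared litter or day the numbers were not taken as pairing. With the replicate block, 597 and 1022 genes passed in the 2 comparisons with Ovol1/2 DKO and 0 in the other, and the adjusted p of Ovol1 was 0.0105 and 0.00694 in the former. No call of Ovol1 or Ovol2 changed with the block. Among genes of the Ovol lists it added Cdh2 and Esrp1 in both comparisons with Ovol1/2 DKO (adjusted p = 0.0494 and 0.0311 against control, 0.0214 and 0.0223 against labelled Ovol1 KO) and Tcf7l2 in the latter (adjusted p = 0.0467), and no call was lost.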
